A study of Mus musculus with 8 samples.

Results

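The genes described are the translation initiation and elongation factors, taken as every gene whose symbol begins with Eif and a digit from 1 to 6, or with Eef1 or Eef2, apart from Eif2ak2. They number 59 of the 13204 genes measured, and all 59 passed the filter on low values. Translation begins when eIF2 brings the initiator tRNA to the small ribosomal subunit, eIF3 holds the assembly together, and the eIF4F complex binds the cap of the mRNA and unwinds its leader. The exchange factor eIF2B reloads eIF2 with GTP, and kinases that phosphorylate eIF2 alpha slow that step under stress. The eEF1 and eEF2 factors then carry each aminoacyl-tRNA to the ribosome and move the ribosome along, and activated T cells are known for a high demand on this machinery.

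RNA was sequenced from OT-I cells, CD8 T cells with a transgenic receptor for a peptide of ovalbumin (OVA). A dose of 1000000 of them was transferred to mice 24 hours before a graft of skin that expresses OVA. On day 14, 3 spleens were pooled per replicate, and 1000 cells that bore CD44 at a high level, Thy1.1 and CD8 were sorted from each pool as positive or negative for FcgRIIB, a receptor that binds IgG and dampens activation. Poly(A) RNA was amplified with SMART-seq v4 and made into NexteraXT libraries, giving 4 libraries in each group that are paired by pool. Both groups carry the same receptor transgene and were exposed to the same graft, and the age and sex of the animals and the strain of the hosts are not given in the labels. The p-values rest on the spread between these 4 pools, with each gene's variance drawn by limma toward that of genes of similar level.

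Depth was 3060000 to 17950000 reads in the negative libraries and 5310000 to 22010000 in the positive libraries. The RNA for the sorted receptor, Fcgr2b, was 1.82 to 4.82 RPKM (a read count set against exon length and library depth) in the negative and 29.6 to 69.9 RPKM in the positive libraries. T cell markers were present in all 8 libraries, but the summed level of 16 core T cell genes was 6312.6 to 10534.8 RPKM in the negative and 2385.9 to 5359.2 RPKM in the positive libraries. The limma test called 7 of those 16 lower and none higher, 13 of 14 dendritic cell markers higher, 15 of 15 macrophage markers higher and 6 of 6 basophil and mast cell markers higher. Summed macrophage markers were 205.3 to 1312.9 RPKM against 1950.4 to 2782.0 RPKM, and summed dendritic markers 242.4 to 541.3 RPKM against 706.6 to 1727.3 RPKM. Most of the dendritic sum in each negative library was Ccr7, the 1 dendritic marker not called higher (log2 fold change -0.63). Ccr7 measured 160.5 to 504.7 RPKM in the negative and 80.5 to 405.1 RPKM in the positive libraries, so the sums understate the difference in the other dendritic markers. No macrophage marker was at 0 in any library, and the dendritic marker Clec10a, the basophil and mast cell marker Fcer1a and the basophil marker Mcpt8 were each at 0 in at least 1 negative library. Of the B cell and neutrophil markers, 1 of 7 and 1 of 4 were called lower, and of the erythroid markers 1 of 4 was called higher. Over all genes tested, 7.22% were called higher and 3.85% lower. The part of these markers in the results on translation factors was not tested, and in bulk samples fewer cells of a type and less RNA per cell cannot be told apart.

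FcgRIIB+ libraries held more Eif2s3y, which encodes the Y-linked gamma subunit of eIF2, and more Eif4ebp1, which encodes an inhibitor of the cap-binding protein. They held less Eif2b3, which encodes the gamma subunit of eIF2B. The other 56 factors were called in neither direction, and 11.1% of all genes tested were called in one or the other. The 2 higher calls are 3.39% of the factors, where 7.22% of the 11946 genes tested were called higher by limma with the pool as a block and a Benjamini-Hochberg adjusted p under 0.05. The 1 lower call is 1.69% of the factors, where 3.85% of genes tested were called lower. Both shares lie below the background. Without the pool as a block, limma called 1 factor higher, Eif2s3y, and none lower, where it called 3.03% of genes higher and 0.268% lower.

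The median log2 fold change, positive minus negative on the log2(RPKM + 1) scale, was -0.27 over the factors and -0.11 over all genes tested, and 44 of the 59 (74.6%) lay below 0 against 61.2% of all genes. Of the factors, 19 (32.2%) were lower in all 4 pairs, where 19.8% of all genes were. Higher values in all 4 pairs were seen for 2 factors, 3.39%, against 10.3% of all genes. At an unadjusted p under 0.05 in limma, 10 factors (16.9%) were lower and 2 (3.39%) higher, against 12.3% and 11.0% of all genes. The median over the factors was -0.17, -0.46, -0.30 and -0.06 in pairs 1 to 4, beside -0.05, -0.11, 0.02 and -0.26 for all genes. The size of the difference thus varied with the pair, and in pair 4 the factors' median was above that of all genes. When the libraries were rescaled to the core T cell genes, the median moved to 0.69 over the factors and to 0.70 over all genes, no factor lay below 0, and 34 factors were called higher (57.6%, against 41.0% of all genes).

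**Figure D1:**
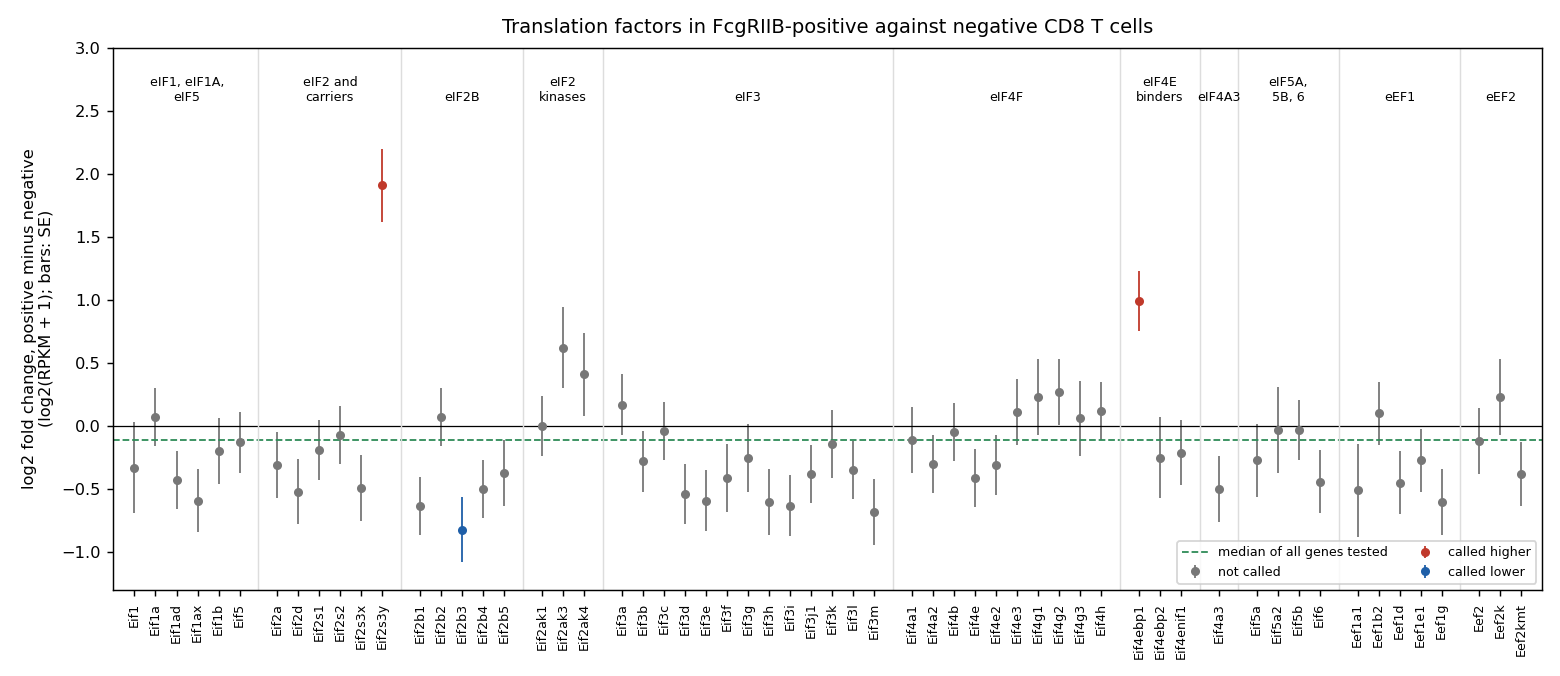
Log2 fold change of each of the 59 translation factors on the log2(RPKM + 1) scale, FcgRIIB+ minus FcgRIIB-, with its standard error from limma, grouped by role; red and blue mark the called genes and the dashed green line is the median of all genes tested, -0.11. Eif2s3y (1.91) and Eif4ebp1 (0.99) stand above and Eif2b3 (-0.82) below, while 12 of the 13 eIF3 subunits lie below 0. Rescaling the libraries to the core T cell genes moves the median of all genes tested to 0.7, and no factor then lies below 0.

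Eif2s3y and its X-linked partner Eif2s3x encode closely related gamma subunits of eIF2, the part that binds GTP and the initiator tRNA. Their coding sequences are both 1419 bases long and differ at 194 bases, so that 86.3% of bases are the same, and the longest run they share is 34 bases. Bases 1024 to 1113 of each coding sequence, from the GENCODE M21 transcripts on GRCm38, are printed here, with the 19 bases that differ in capitals. Among stretches of 90 bases that start at a codon, this one was chosen as holding the most differing bases, so it is not typical of the whole.
Eif2s3x: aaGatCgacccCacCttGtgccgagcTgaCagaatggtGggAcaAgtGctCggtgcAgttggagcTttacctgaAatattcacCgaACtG
Eif2s3y: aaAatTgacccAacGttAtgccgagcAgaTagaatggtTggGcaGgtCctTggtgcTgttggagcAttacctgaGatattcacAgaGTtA
No run of 50 bases in the Eif2s3y transcripts occurs in another annotated gene, whereas 35.4% of such runs in Eif2s3x also occur in the locus Gm2223, so part of the Eif2s3x signal is uncertain.

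Eif2s3y measured 1.42, 9.64, 2.92 and 2.78 RPKM in negative libraries 1 to 4 and 16.7, 28.9, 12.6 and 9.70 RPKM in positive libraries 1 to 4. Every positive library was above every negative one, although the lowest positive value, in replicate 4, lay close to the highest negative value, in replicate 2. The log2 fold change was 1.91 (SE 0.29, adjusted p = 4.79e-05 in limma), a 3.77-fold difference in RPKM + 1, and the level was higher in 4 of 4 pairs. The values rest on 15 to 289 reads in the negative and 91 to 1125 reads in the positive libraries. The call held in all 14 alternatives, with adjusted p from 6.05e-10 to 0.0445, the largest being without the pool as a block.

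Eif2s3x went the other way in 3 of 4 pairs. It measured 43.0, 23.5, 18.3 and 13.2 RPKM in the negative and 32.5, 28.8, 7.31 and 8.07 RPKM in the positive libraries, and the groups overlapped. Its log2 fold change was -0.49 (SE 0.26, adjusted p = 0.267 in limma), and in replicate 2 the positive library was the higher one. The Y-linked copy made up 3.2%, 29.0%, 13.8% and 17.3% of the summed RPKM of the pair in the negative libraries. In the positive libraries it made up 33.9%, 50.1%, 63.3% and 54.6%. The share was higher in the positive library of every pool.

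Other Y-linked genes and Xist, the RNA that coats the inactive X chromosome, were looked up after these values were seen. Ddx3y, an RNA helicase gene of the Y chromosome, measured 1.55, 3.42, 1.01 and 0.903 RPKM in the negative and 23.5, 34.6, 5.25 and 8.16 RPKM in the positive libraries. Its log2 fold change was 2.54 (SE 0.31, adjusted p = 2.98e-06 in limma), with no overlap between the groups. Uty and Kdm5d, histone demethylase genes of the Y chromosome, were below the filter and were not tested. Uty lay between 0.076 and 0.453 RPKM in the negative and between 0.844 and 4.6 RPKM in the positive libraries, and Kdm5d between 0.016 and 0.333 against 0.383 and 3.44 RPKM. Xist was lower in the positive library of 4 of 4 pairs, at 1.21 to 4.25 against 0.251 to 1.24 RPKM, with a log2 fold change of -0.81 that did not pass the test (adjusted p = 0.126 in limma). The labels give no sex for donors or hosts, so the part of sex in the Eif2s3y result was not tested.

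**Figure D2:**
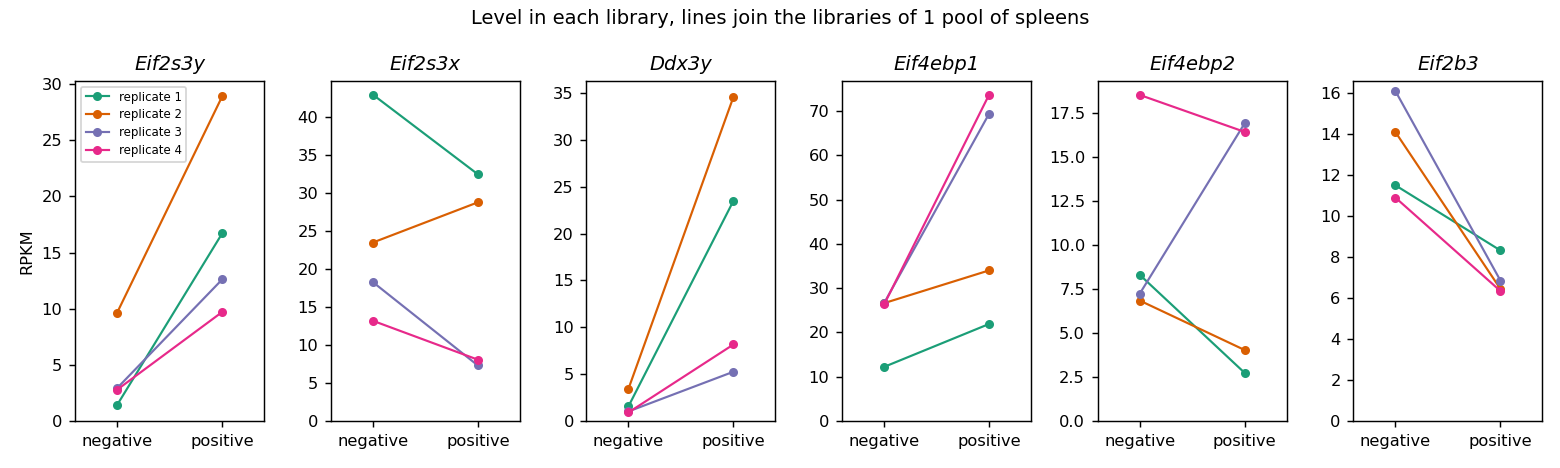
RPKM in each library for Eif2s3y, Eif2s3x, Ddx3y, Eif4ebp1, Eif4ebp2 and Eif2b3, with a line joining the negative and positive library of each pool and every axis starting at 0. Eif2s3y, Ddx3y and Eif4ebp1 rise along all 4 lines and Eif2b3 drops along all 4, while the lines of Eif2s3x and Eif4ebp2 go in both directions.

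The remaining initiator tRNA carriers were not called. Eif2s1 and Eif2s2, the alpha and beta subunits of eIF2, had log2 fold changes of -0.19 and -0.07, and Eif2a and Eif2d, alternative initiator tRNA carriers, had -0.31 and -0.52 and were lower in 4 of 4 pairs. Over the 6 genes the median was -0.25.

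Among the 5 subunits of eIF2B the median was -0.50, and Eif2b3 was the 1 called lower, where 3.85% of all genes were. Eif2b3 measured 11.5, 14.1, 16.1 and 10.9 RPKM in the negative and 8.32, 6.44, 6.85 and 6.34 RPKM in the positive libraries. All positive libraries lay below all negative ones. The positive library had 0.723, 0.458, 0.425 and 0.580 times the level of the negative one in pairs 1 to 4. The log2 fold change was -0.82 (SE 0.26, adjusted p = 0.0443 in limma), a 1.76-fold difference in RPKM + 1. This call was narrow: it was kept in 2 of 14 alternatives, those with a pseudocount of 0.1 and with no filter, was lost without the pool as a block (adjusted p = 0.171 in limma) and without any 1 replicate (adjusted p 0.0665 to 0.255 in limma), and under rescaling to the core T cell genes the log2 fold change was 0.09.

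The other eIF2B subunits were not called. Eif2b1 (alpha), with a log2 fold change of -0.63, and Eif2b4 (delta), with -0.50, were lower in 4 of 4 pairs, and their adjusted p in limma was 0.0893 and 0.197. Eif2b5, the catalytic epsilon subunit, had -0.37 and Eif2b2 (beta) 0.07. These 4 subunits were named after their values were seen. Summed over the complex, the level was lower in the positive library of all 4 pairs, at 178.4 ± 42.3 RPKM in the negative and 145.6 ± 30.9 RPKM in the positive libraries (SD, n = 4).

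Of the kinases that phosphorylate eIF2 alpha, none was called. Eif2ak3, which encodes PERK, the kinase that senses unfolded protein in the endoplasmic reticulum, measured 1.89, 1.59, 1.77 and 3.41 RPKM in the negative and 2.29, 5.51, 4.47 and 3.30 RPKM in the positive libraries. The groups overlapped through negative replicate 4. Its log2 fold change was 0.62 (SE 0.32, adjusted p = 0.268 in limma), with higher values in 3 of 4 pairs. Eif2ak4, the amino acid sensor GCN2, had 0.41 (SE 0.33) and Eif2ak1, the heme-regulated kinase, 0.00 (SE 0.24).

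Genes that act with or after these kinases were read from a separate list of 17 tested genes. Of these, 3 were called higher and none lower, where 7.22% of all genes were called higher and 3.85% lower. In the list 10 genes lay above 0 and 7 below, where 61.2% of all genes lay below. At an unadjusted p under 0.05 in limma, 6 were higher and 2 lower, against 11.0% and 12.3% of all genes. The median was 0.17, beside -0.11 for all genes. Atf3, a stress-induced transcription factor, measured 1.88, 31.4, 6.36 and 19.8 RPKM in the negative and 138.8, 227.8, 159.0 and 142.4 RPKM in the positive libraries (log2 fold change 3.91, SE 0.34, adjusted p = 1.99e-08 in limma). Nupr1, a small stress-response nuclear protein, had a log2 fold change of 2.0 (adjusted p = 0.000106 in limma), and Chac1, an enzyme that breaks down glutathione, had 1.69 (adjusted p = 0.00155 in limma). Chac1 was low, at 0.106 to 1.88 RPKM in the negative and 2.86 to 10.3 RPKM in the positive libraries. The pair 2 difference of Nupr1 was 0.38 on the log2 scale, against 2.39 to 2.61 in the other pairs. In all 3 genes every positive library was above every negative one, where 4.61% of all genes were so placed. Atf4, the transcription factor whose translation rises when eIF2 alpha is phosphorylated, was not among them: its RNA measured 75.5 to 115.9 RPKM in the negative and 71.1 to 88.2 RPKM in the positive libraries, with a log2 fold change of -0.28 (adjusted p = 0.546 in limma). Ddit3, which encodes CHOP, had -0.59 (adjusted p = 0.192 in limma). Chac1 was the 1 of the 3 that lost its call without the pool as a block (adjusted p = 0.0552 in limma).

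This list was written partly from known targets of ATF4, so its promoters were searched for the motif TGATGCAA on both strands, read as TTGCATCA on the other, in windows from 250 bases before to 50 bases after each RefSeq start on GRCm38.p6. The motif occurred in 0.895% of the 32851 windows of all genes, in 4 of the 17 windows of the list (23.5%, from 16 genes), and in 0 of the 63 windows of the 48 translation factors that have one. The called factors Eif4ebp1 and Eif2b3 had no window and were not searched. The windows of the 3 called genes that hold it are shown with the motif in capitals, at chr1:191183422-191183457 on the minus strand for Atf3, chr2:119351035-119351070 on the plus strand for Chac1 and chr7:126625559-126625594 on the minus strand for Nupr1.
Atf3: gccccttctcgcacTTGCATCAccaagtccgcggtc
Chac1: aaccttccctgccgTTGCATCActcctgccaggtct
Nupr1: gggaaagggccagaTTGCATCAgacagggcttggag
The motif lay 110 to 103 bases before the start in Atf3 and Nupr1 and 193 to 186 bases before it in Chac1. A match describes these letters only. Because known targets of ATF4 were put on the list, its share beside that of all genes is not a result of these data. The fourth gene, Slc7a11, a cystine transporter, was below the filter on levels.

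None of the 13 subunits of eIF3, the scaffold that joins the small ribosomal subunit to the mRNA, was called. Of the 13, 12 had a log2 fold change below 0, where 61.2% of all genes did, and the median was -0.38. In all, 7 were lower in all 4 pairs, where 19.8% of all genes were, and 5 were lower at an unadjusted p under 0.05 in limma, where 12.3% of all genes were. The summed level was 1192.0, 1635.9, 1666.9 and 1037.1 RPKM in the negative and 1023.4, 984.8, 1162.9 and 987.8 RPKM in the positive libraries. It was lower in the positive library of every pair, and negative replicate 4 lay inside the positive range. The RNA of Eif3g, the most abundant subunit, was 233.7 ± 71.6 against 190.3 ± 25.2 RPKM (SD, n = 4), with a log2 fold change of -0.25 (adjusted p = 0.659 in limma). Chosen after their values were seen, Eif3m had -0.68 (adjusted p = 0.103 in limma), and Eif3h, with -0.60 (adjusted p = 0.164 in limma), was the 1 subunit whose groups did not overlap. Eif3a, the largest subunit, had 0.17 and was the 1 above 0. Of the 50-base runs of Eif3m and Eif3h, 37.1% and 26.2% also occur in other genes, so their levels are uncertain in part. The same holds for Eif3j1 (54.8%), Eif3e (22.0%) and Eif3d (16.7%), and these genes, with Eif3m and Eif3h, are among the 7 lower in all 4 pairs. Rescaled to the core T cell genes, no subunit lay below 0, and Eif3g was at 0.75. That rescaling moved the median of all genes tested to 0.7, so this is not particular to eIF3.

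The cap-binding complex eIF4F and its cofactors showed no common direction. Of its 10 genes 5 lay below and 5 above 0, with a median of 0.01 and no call. Eif4a1, the helicase and the most abundant of them, had a log2 fold change of -0.11 (SE 0.26), and Eif4e, which binds the cap, had -0.41 (adjusted p = 0.324 in limma). The scaffolds Eif4g1, Eif4g2 and Eif4g3 had 0.23, 0.27 and 0.06 (SE 0.30, 0.26 and 0.30). Their pair 2 differences were 1.62, 1.21 and 1.02 on the log2 scale, against -0.85 to 0.22 in the other pairs. Among the 4 libraries of replicates 1 and 2, negative replicate 2 was the lowest for all 3 genes, and negative replicate 3 was lower still. Eif4g1 measured 43.9, 12.6, 11.7 and 16.5 RPKM in the negative and 26.1, 40.8, 12.7 and 15.8 RPKM in the positive libraries. Since 65.3% of the 50-base runs of Eif4a1 also occur in other genes, mostly the pseudogene Eif4a-ps4, its level is uncertain.

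Of the genes for proteins that bind eIF4E, 1 of 3 was called higher and none lower, where 7.22% and 3.85% of all genes were. Eif4ebp1 encodes 4E-BP1, which blocks the assembly of eIF4F until mTORC1 phosphorylates it, and it measured 12.2, 26.6, 26.6 and 26.3 RPKM in the negative and 21.9, 34.0, 69.4 and 73.7 RPKM in the positive libraries. Each positive library was above the negative one of its pool, by 1.80, 1.28, 2.61 and 2.80 times in pairs 1 to 4, while the groups overlapped because the positive library of replicate 1 lay below 3 negative libraries. The log2 fold change was 0.99 (SE 0.24, adjusted p = 0.00884 in limma), a 1.98-fold difference in RPKM + 1. The larger differences were in replicates 3 and 4, whose libraries were shallower than those of replicates 1 and 2, at 3060000 to 7360000 reads. The adjusted p in limma was 0.105 without replicate 3, 0.0606 without replicate 4, 0.549 in replicates 1 and 2 alone and 0.400 without the pool as a block. Eif4ebp2, the related 4E-BP2, measured 8.29, 6.83, 7.22 and 18.5 RPKM in the negative and 2.72, 4.02, 16.9 and 16.4 RPKM in the positive libraries. Its groups overlapped, with replicates 1 and 2 lower and replicate 3 higher in the positive library, and its log2 fold change was -0.25 (SE 0.32, adjusted p = 0.729 in limma). Eif4enif1, which carries eIF4E into the nucleus, had -0.21 (SE 0.26).

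Partners of the cap complex outside these names gave 1 gene higher and 1 lower of 16, with a median of -0.05. Of all genes, 7.22% were called higher and 3.85% lower. Pdcd4, an inhibitor that binds the eIF4A helicase, fell by 0.95 on the log2 scale (SE 0.25, adjusted p = 0.0144 in limma). It measured 45.6, 64.2, 59.0 and 53.3 RPKM in the negative and 20.2, 19.2, 37.2 and 42.9 RPKM in the positive libraries, with no overlap. Cyfip1, which binds eIF4E and is also part of an actin regulator complex, rose by 1.16 (SE 0.33, adjusted p = 0.0249 in limma), and its groups overlapped. Both calls were lost without the pool as a block, and Pdcd4 also without replicate 1 or 2 (adjusted p up to 0.0961 in limma) and Cyfip1 without replicate 1, 2 or 3 (adjusted p up to 0.166 in limma). Of 26 genes of mTORC1 and its regulators, none was called and the median was -0.06. Lamtor5, a subunit of the complex that holds mTORC1 at the lysosome and, with Lamtor2, the most abundant of them in mean log2(RPKM + 1), had 0.08 (SE 0.30).

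Elongation factors were called in neither direction. Eef1a1, which delivers aminoacyl-tRNA and was the most abundant factor, with 15.4% to 20.2% of the summed level per library, measured 1056.2, 1348.5, 1424.3 and 1002.5 RPKM in the negative and 940.1, 803.0, 897.7 and 731.3 RPKM in the positive libraries. All positive libraries were below all negative ones, and the pair differences were -0.17, -0.75, -0.67 and -0.45 on the log2 scale. The log2 fold change was -0.51 (SE 0.37, adjusted p = 0.471 in limma). Limma draws that error toward genes of similar level, and with no trend in eBayes the adjusted p in limma was 0.28. Eef1a1, Eif2b3 and Eif3h were the 3 factors (5.08%) with all positive libraries below all negative ones, against 4.15% of all genes. The 1 factor with all positive libraries above, Eif2s3y, was 1.69% against 4.61%. Among the 5 eEF1 genes the median was -0.45. Runs of 50 bases shared with other genes made up 53.6% of Eef1a1 and 64.3% of Eef1g, so their levels are uncertain. Eef2, which moves the ribosome along the mRNA, was 204.4 ± 60.2 against 192.6 ± 73.6 RPKM (SD, n = 4; log2 fold change -0.12), and its kinase Eef2k had 0.23 (SE 0.30).

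All 8 tested genes for the hypusine mark on eIF5A and the diphthamide mark on eEF2 had log2 fold changes below 0, where 61.2% of all genes did. Their median was -0.49. The 1 call was Dph2, which acts in diphthamide synthesis and fell by 0.78 on the log2 scale (SE 0.25, adjusted p = 0.0480 in limma). That call was lost without the pool as a block (adjusted p = 0.292) and without any 1 replicate (adjusted p up to 0.177). Neither the 10 termination and recycling factors, with a median of -0.19, nor the 9 mitochondrial translation factors, with -0.28, held a call. In these lists 8 of the 10 and all 9 genes lay below 0. The most abundant of each, the reinitiation factor Mcts1 and the mitochondrial elongation factor Tufm, had -0.20 (SE 0.25) and -0.42 (SE 0.24). Over the 6 lists of related genes, 4 of 85 tested genes were higher and 2 lower, where 7.22% and 3.85% of all genes were.

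The remaining initiation factors were likewise not called. Eif1, which guards start codon choice and was the second most abundant factor in mean log2 level, was 955.7 ± 194.6 RPKM in the negative and 775.6 ± 241.4 RPKM in the positive libraries (SD, n = 4; log2 fold change -0.33). Eif5a, which helps the ribosome through difficult peptide bonds, had -0.27 (SE 0.29), and Eif4a3, the helicase of the exon junction complex, -0.50 (SE 0.26, adjusted p = 0.269 in limma). The summed level of all 59 factors was 5691.2, 7097.6, 7262.1 and 4975.3 RPKM in the negative and 5048.4, 4914.7, 5360.1 and 4751.2 RPKM in the positive libraries. The sum was lower in the positive library of all 4 pairs. As a share of the whole table it was 0.888% to 1.52% in the negative and 0.716% to 1.30% in the positive libraries.

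**Figure D3:**
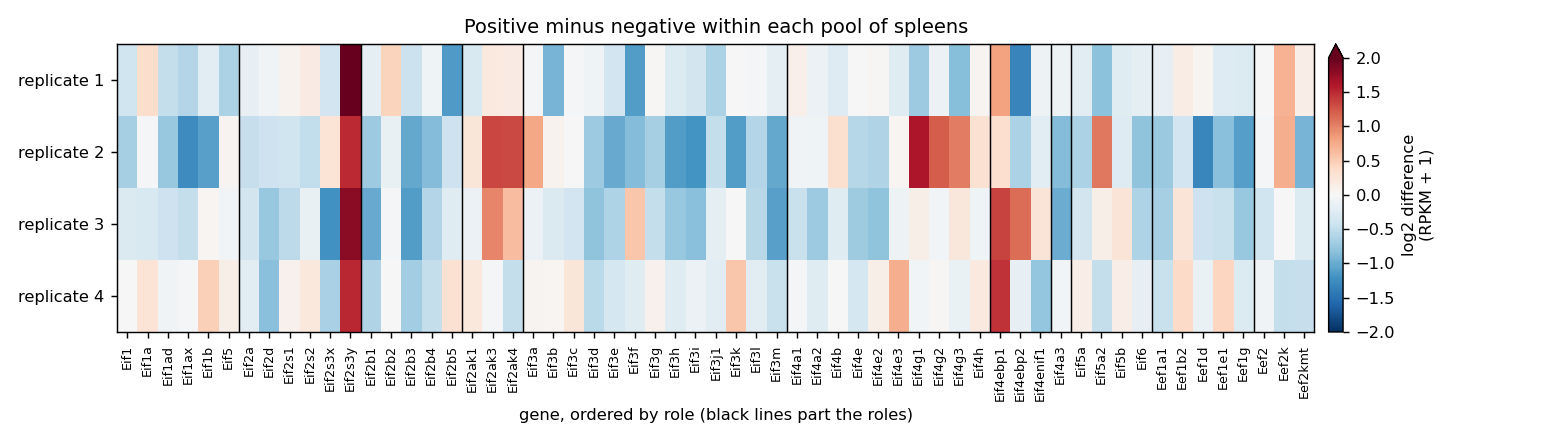
Difference in log2(RPKM + 1), positive minus negative, for each factor (columns, in order of role) within each pool of spleens (4 bands), with the colour scale ending at 2 in either direction. Eif2s3y in replicate 1, at 2.87, lies beyond the scale, Eif2s3y and Eif4ebp1 are red in all 4 pools, and Eif4g1, Eif4g2 and Eif4g3 are red only in replicate 2 at over 1.

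The level of a factor also varied with the replicate number and with the length of its gene. The mean level in replicates 3 and 4 minus that in replicates 1 and 2 correlated across the 59 factors with log2 exon length at Pearson's r = -0.38 (Spearman's rho -0.36), beside -0.33 (-0.27) across all genes tested. The points share their libraries and are not independent replicates. By band of length, the median of this difference was 0.02 for the 20 factors under 2000 bases, -0.47 for the 20 from 2000 to 4000 and -0.23 for the 19 over 4000. The difference between the sorted groups correlated with length at 0.17 across factors and 0.03 across all genes, and its median was -0.43, -0.28 and -0.05 in the same 3 bands, closest to 0 in the longest genes. Both groups of each pool carry the replicate number, and the labels do not say what else the number marks. Depth differed with it, at 16470000 to 22010000 reads in replicates 1 and 2 and 3060000 to 7360000 reads in replicates 3 and 4. The part of depth in these differences was not tested.

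**Figure D4:**
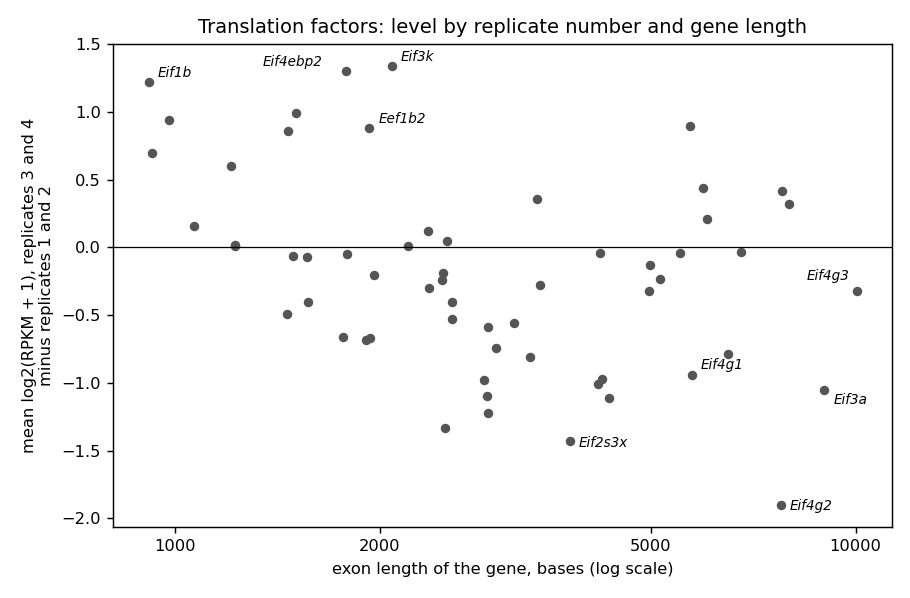
Mean log2(RPKM + 1) in replicates 3 and 4 minus that in replicates 1 and 2 for each of the 59 factors, against exon length in bases on a log scale. Eif3k and Eif4ebp2 lie highest, at 1.34 and 1.30, and Eif4g2 lowest, at -1.90.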

How the data were processed

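The data are 8 mouse poly(A) RNA libraries. The values are RPKM per gene, as the authors deposited them, per the file headers; the submitters' processing notes name TopHat2 (no version) and the build mm9, and the counting tool and use of strand are not given in the sources used here. Every gene in the table reached 3 RPM in at least 4 libraries. Depths were recovered from the size of 1 read in RPKM times length, with 99.9% to 100.0% of values whole within 0.1 reads. A gene was tested if 4 or more libraries reached 1 RPKM (11946 genes; 1258 left out) on log2(RPKM + 1) by limma 3.58.1 under R 4.3.3 (lmFit, eBayes with trend, two-sided), with the replicate number as a block and Benjamini-Hochberg adjustment over all genes tested (threshold 0.05). The steps were tested on simulated data.

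Per the design text of the series, a positive and a negative library with one number came from one pool of spleens. Within pairs 1 to 4 the residuals about the group means had correlations of 0.70, 0.41, 0.56 and 0.68, and the best match of 7 of the 8 libraries was the partner of the same number. Fold changes on this scale understate the change of low genes.

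The genes named are every called factor, the most abundant factor of each role with no call, the 5 most abundant of all, Eif2s3x and Eif2s3y, the kinases and inhibitors Eif2ak1, Eif2ak3, Eif2ak4, Eif4ebp1, Eif4ebp2 and Eef2k, and, of each related list, up to 4 called genes or the most abundant one. The rule also took the 2 most abundant genes of each cell type marker list, which are given here within the sums. Other genes were named after their values were seen. The members and lists were chosen with earlier results of these data known. All 59 factors matched RefSeq by gene ID; no coordinates of mm9 are given. The alternatives were no block, another pseudocount, no filter, each replicate left out, replicates 1 and 2 or 3 and 4 alone, 4 rescalings and no trend.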

Additional observations from a re-analysis of the deposited data

Results flagged for a closer look

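Among the 16 named factors, each group of 4 libraries was checked for a library far from the other 3, by Dixon's test of the gap to its nearest neighbour against the whole range. In 3 of 32 groups 1 library did so, and chance alone gives about 1 in 20. For Eif2ak3, the gene of the kinase PERK, negative replicate 4 stood above the other negative libraries at 3.41 RPKM, where they lay between 1.59 and 1.89 RPKM. For Eif4ebp2, the gene of 4E-BP2, the same library stood high at 18.5 RPKM, with the others between 6.83 and 8.29 RPKM. It is the shallowest library, at 3060000 reads. For Eif4ebp1, the gene of 4E-BP1, negative replicate 1 stood low at 12.2 RPKM, with the others between 26.3 and 26.6 RPKM, and without replicate 1 the adjusted p in limma was 0.0372.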

How the results depend on the processing

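The limits are the 1000 cells per library, the depth, lowest at 3060000 reads, and the marker genes of other cells that differ between the groups. Eif2s3y was called higher in all 14 alternatives. The median over the factors stayed below 0 in all of them except rescaling to the core T cell genes, where it was 0.69. Without the replicate block, 362 genes of all were higher and 32 lower, 1 factor higher and 0 lower, and 2 genes of the related lists higher and 0 lower, against 863, 460, 2, 1, 4 and 2 with it. Eif4ebp1 and Eif2b3 were the factors that lost their call without the block. Leaving out 1 replicate in turn gave 576 to 1242 genes higher and 157 to 458 genes lower of all. It gave 1 to 2 factors higher and 0 factors lower, and in the related lists 3 to 7 genes higher and 0 to 3 lower. In replicates 1 and 2 only, 178 genes were lower, with 1 factor higher and 0 lower and 1 gene of the lists lower. In replicates 3 and 4 only, 249 genes were lower, with 0 factors lower and 2 genes of the lists higher and 0 lower. Rescaling to a common sum left 1 gene of the lists lower, and the factor it called lower was Eif3m, not Eif2b3. Rescaling by median ratios and quantile normalization each called 0 factors lower. With no trend in eBayes, 283 genes were lower, 0 factors and 0 genes of the lists. Rescaling to the core T cell genes gave 4896 genes higher and 13 lower, 34 factors higher and 0 lower, and 39 genes of the lists higher and 0 lower. The log2 fold change turned under that rescaling to 0.49 for Eef1a1, 0.88 for Eef2, 0.67 for Eif1, 0.09 for Eif2b3, 0.45 for Eif2s3x, 0.75 for Eif3g, 0.89 for Eif4a1, 0.49 for Eif4a3, 0.63 for Eif4ebp2 and 0.73 for Eif5a. Uncalled factors near 0 turned elsewhere: Eif2ak1 to -0.08 without replicate 2 and -0.06 without replicate 4 (range -0.08 to 0.11), -0.03 in replicates 1 and 2 only and -0.03 with a common sum; Eif4a1 to 0.00 without replicate 3 (range over replicates left out -0.18 to 0.00), 0.02 in replicates 1 and 2 only and 0.05 with quantiles; Eef2 to 0.03 with quantiles; Eif4ebp2 to 0.11 without replicate 1 (range over replicates left out -0.71 to 0.11) and 0.48 in replicates 3 and 4 only; and Eef2k to -0.24 in replicates 3 and 4 only. Settings that leave replicates out also have fewer libraries, and the cause of these changes was not tested.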
